A study of Mus musculus with 24 samples.

Results

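The expression of 42 genes of the cell cycle and of DNA replication was followed through 24 mouse colon libraries. The genes were taken by symbol from a list given for the series, and all 42 were found among the 23329 gene symbols of the deposited files. They fall into 8 groups by role: cyclins and cyclin-dependent kinases (8 genes), transcription factors of the cell cycle (3), origin licensing and the MCM helicase (9), DNA synthesis and nucleotide supply (4), mitotic kinases and the spindle checkpoint (7), spindle, kinetochore and cytokinesis (7), partners of the anaphase-promoting complex (2), and the proliferation antigen Ki-67 with topoisomerase II alpha (2). The rule uses symbols alone, though the list was drawn up with earlier results of these data known.

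A dividing cell first licenses its replication origins with the MCM helicase, then copies its DNA, and then separates the chromosomes on a spindle watched by a checkpoint. Cyclins bound to their kinases drive each step, E2F factors switch on replication genes in late G1, and B-MYB and FOXM1 switch on mitotic genes in G2. In the colon, division is confined largely to the lower part of the crypts, where stem cells and their transit-amplifying daughters lie, and stops as colonocytes mature toward the surface.

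All mice were of strain C57Bl/6 and carried VilCre, a Cre recombinase driven by the Villin promoter, which is active in gut epithelium. Control mice carried VilCre alone, and transgenic mice were VilCre-CMVcaNrf2, with a constitutively active form of the transcription factor NRF2 (gene Nfe2l2) in addition. The 6 groups of 4 libraries each were control and transgenic whole colon wall without treatment, control and transgenic whole colon wall with dextran sulfate sodium (DSS, a chemical that injures the colon lining), and control and transgenic colon epithelial cells without treatment. Wall samples were pieces 10 mm long, taken 10 to 20 mm from the rectum. No source used here gives the age of the mice, the dose and length of DSS or the way epithelial cells were isolated. The design text mentions 3 replicates, while 4 libraries per group were analysed. Nothing in the labels ties a library to a separate animal, so p-values measure the spread between these samples, which may be partly technical.

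Wall libraries held 20232317 to 154335999 estimated counts and epithelial libraries 6683785 to 15399870, and the lowest estimated count of a cell cycle gene in any library was 8 (median 616). Nfe2l2 was at 99.5 to 146 CPM (counts scaled to the size of each library) in control and 148 to 238 CPM in transgenic untreated wall, at 111 to 168 and 166 to 285 CPM in DSS-treated wall, and at 139 to 203 and 231 to 370 CPM in epithelial cells, so that the ranges of the genotypes overlapped in DSS-treated wall and nearly met in untreated wall. The mean log2 CPM of 6 smooth muscle markers was 10.38 to 12.54 in wall and 1.13 to 3.83 in epithelial libraries, and that of 10 pan-epithelial markers was 8.72 to 9.70 in wall and 9.40 to 10.26 in epithelial libraries. Within their groups 3 libraries were followed further. Transgenic DSS-treated wall replicate 1 had the highest level of all 42 genes among the 4 libraries of its group. Control epithelial replicate 3 had the lowest level of 38 genes in its group and transgenic epithelial replicate 1 the lowest of 31 in its own. Other libraries were about as one-sided within their groups. Control DSS-treated wall replicate 3 had the lowest level of 37 genes and transgenic DSS-treated wall replicate 4 the lowest of 34. Control untreated wall replicate 2 had the highest level of 35. The main counts that rest on the 3 libraries followed further are given with and without them.

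In control colon wall, DSS lowered nearly the whole set. All 42 genes passed the filter on low counts, and 40 were called lower with DSS (edgeR's quasi-likelihood test, Benjamini-Hochberg adjusted p below 0.05), where 16.1% of all 16074 genes tested were called lower. The median log2 fold change was -1.80, against 0.06 over all genes, and single genes ranged from -2.48 to -0.53. In 39 of the 42 every DSS library lay below every untreated library, as was the case for 14.7% of all genes. In transgenic wall 26 genes were called lower, against 18.1% of all genes, with a median of -1.46, and the groups did not overlap for 18 of 42 (16.7% of all genes). All 26 were among the 40 called in controls. In bulk samples such as these, fewer dividing cells and less RNA per cell cannot be told apart.

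**Figure D1:**
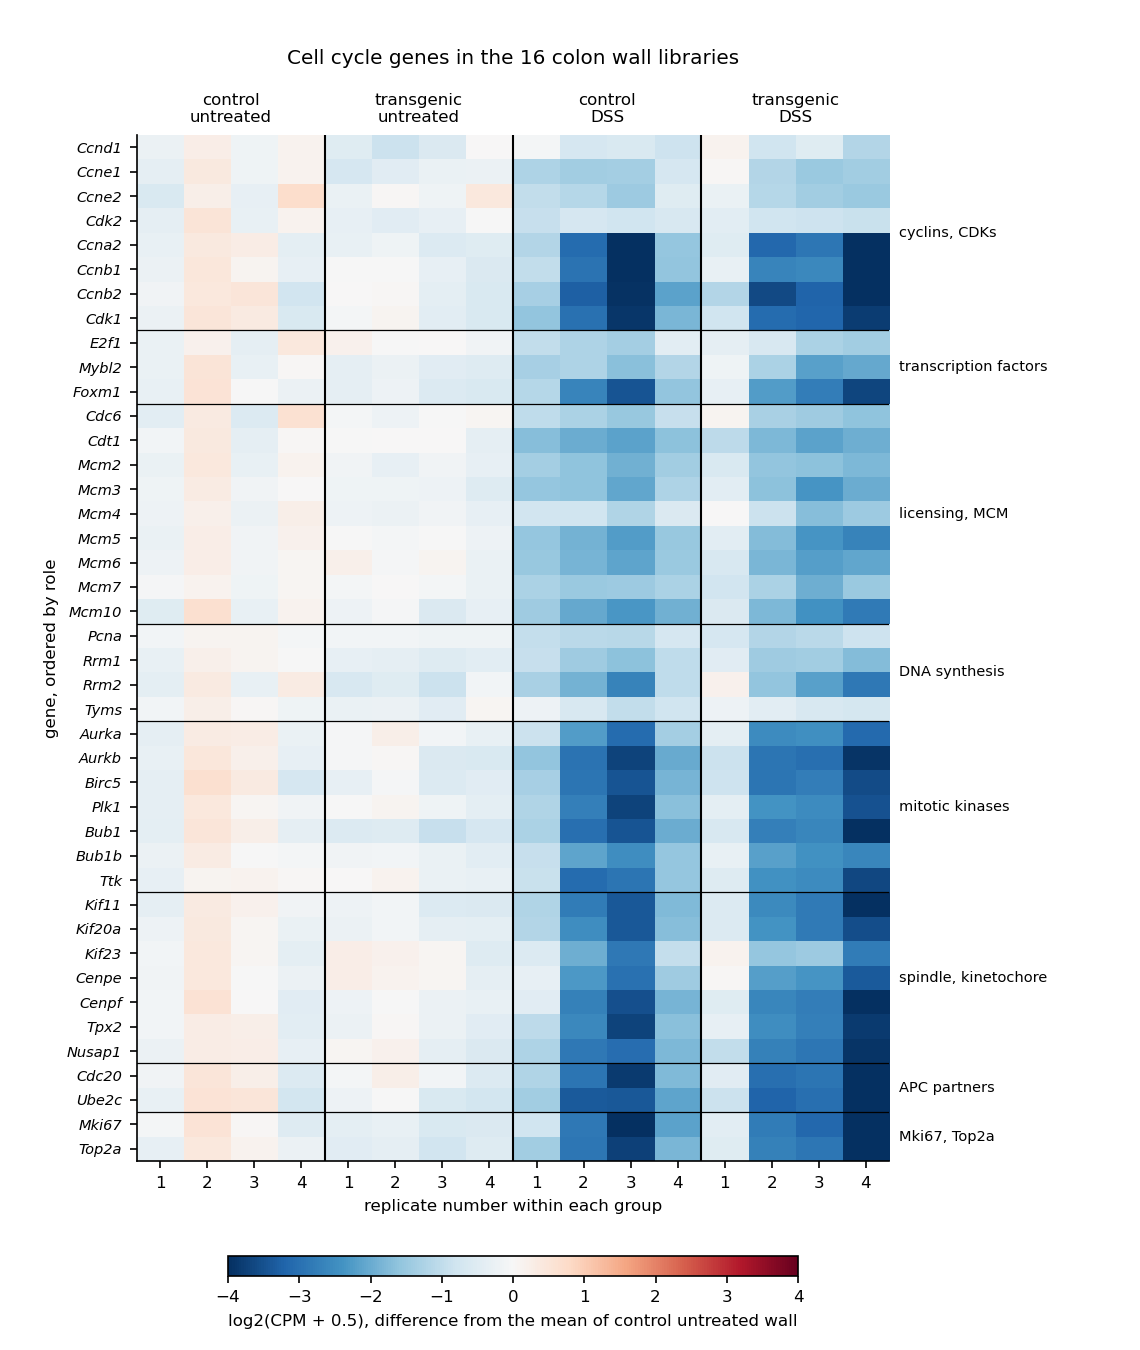
Each column is 1 of the 16 colon wall libraries and each row 1 of the 42 genes, ordered by role; colour gives the difference of log2(CPM + 0.5) from the mean of the 4 control untreated libraries. The DSS columns are blue for nearly all genes, least so in transgenic replicate 1, and the mitotic rows below are darker than the licensing and DNA synthesis rows.

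Among the cyclins and their kinases in control wall, Ccnd1, Cdk2, Ccne1 and Ccne2 had smaller fitted falls than Ccna2, Ccnb1, Ccnb2 and Cdk1. The genes were not tested against each other. Ccnd1, the D-type cyclin that couples growth signals to the cycle (chr7:144929931-144939925 on mm10), was at 71.3, 100.5, 73.7 and 90.9 CPM in control untreated wall and at 79.2, 52.4, 54.6 and 46.6 CPM with DSS. These groups overlapped, and the log2 fold change of -0.53 ± 0.25 (SE) did not pass the threshold (adjusted p = 0.106). Cdk2, the kinase of cyclins E and A (chr10:128697939-128705051), was at 20.2, 37.9, 21.2 and 28.9 CPM untreated and at 13.6, 16.2, 14.9 and 16.5 CPM with DSS, without overlap, a fall of 1.76-fold (log2 fold change -0.82 ± 0.19, adjusted p = 0.00332). Cdk1, the kinase that starts mitosis (chr10:69336635-69352912), was at 42.4, 69.9, 65.3 and 33.2 CPM untreated and at 16.6, 5.91, 2.92 and 13.8 CPM with DSS. The highest DSS library of Cdk1 lay well below the lowest untreated library, and the fall was 5.33-fold (-2.42 ± 0.60, adjusted p = 0.00563). Ccna2, cyclin A2 of S and G2 phase (chr3:36564865-36571996), was at 58, 92.5, 87.3 and 53.7 CPM untreated and at 31.4, 7.86, 3.42 and 24.1 CPM with DSS (-2.12 ± 0.69, adjusted p = 0.0228). Its control DSS libraries thus ranged widely but stayed below all untreated ones. The mitotic cyclins Ccnb1 and Ccnb2 had log2 fold changes of -2.06 and -2.47, and the E-type cyclins Ccne1 and Ccne2, partners of Cdk2 at the start of S phase, of -1.29 and -1.27, all called lower. In transgenic wall Cdk1 was at 47.8, 53.9, 37.2 and 33.1 CPM untreated and at 28.7, 5.54, 5.11 and 3.18 CPM with DSS (-2.01 ± 0.60, adjusted p = 0.0139). Replicate 1 was far above the other 3 DSS libraries, yet still below the untreated ones. Of the 8 genes in this role group, 3 were called lower in transgenic wall (Cdk1, Ccnb2 and Ccne2).

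All 3 transcription factors fell in control wall. Mybl2, which encodes B-MYB (chr2:163054635-163084687), was at 7.43, 13, 7.31 and 9.36 CPM untreated and at 3.31, 3.52, 2.47 and 3.77 CPM with DSS (-1.49 ± 0.39, adjusted p = 0.00695). Foxm1, an activator of G2 and mitotic genes (chr6:128362994-128375886), was at 22.2, 40.4, 27.3 and 23 CPM untreated and at 12.2, 3.95, 2.06 and 8.94 CPM with DSS (-2.04 ± 0.61, adjusted p = 0.0143). The DSS libraries lay below the untreated ones for both genes. In transgenic wall Foxm1 was at 21.1, 23.8, 18.6 and 17.9 CPM untreated and at 21.6, 5.44, 3.6 and 1.67 CPM with DSS, so that replicate 1 with DSS lay within the untreated range (-1.32 ± 0.59, adjusted p = 0.0848). E2f1, an E2F factor that activates S phase genes, had log2 fold changes of -1.08 in controls and -0.94 in transgenic wall, and it was the factor called lower in both genotypes.

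All 9 licensing genes fell in control wall and 7 of them in transgenic wall. Cdt1, which loads the MCM helicase onto origins (chr8:122568015-122573130), had the smallest p of the 42 genes in both genotypes. It was at 20.0, 28.5, 16.5 and 22.4 CPM in control untreated wall and at 6.25, 5.0, 4.48 and 6.49 CPM with DSS, a fall of 3.91-fold (-1.97 ± 0.24, adjusted p = 8.51e-05). In transgenic wall Cdt1 was at 21.2, 21.5, 21.5 and 16.8 CPM untreated and at 10.2, 5.87, 4.5 and 5.12 CPM with DSS (-1.65 ± 0.24, adjusted p = 0.000155). In both genotypes all 4 DSS libraries lay below the untreated libraries, close to each other in controls, while transgenic replicate 1 stood well above the other 3. Mcm4, a helicase subunit (chr16:15623897-15637400), was at 29.2, 38.6, 28.9 and 39.9 CPM in control untreated wall and at 19.5, 19.2, 14.2 and 22.6 CPM with DSS, a smaller fall of 1.81-fold (-0.85 ± 0.29, adjusted p = 0.0265). The other helicase subunits Mcm2, Mcm3, Mcm5, Mcm6 and Mcm7 fell in controls, with log2 fold changes from -1.83 to -1.39. Mcm10, which helps to activate the loaded helicase, had a log2 fold change of -2.13, and Cdc6, which loads it together with Cdt1, of -1.41. In transgenic wall Mcm4 and Cdc6 were not called (adjusted p = 0.0917 and 0.0697).

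The 4 genes of DNA synthesis fell in controls, with a median of -1.09. Pcna, the sliding clamp of DNA polymerases (chr2:132249286-132253180), was at 97.5, 113, 114 and 99.4 CPM untreated and at 54.4, 50.2, 48.7 and 66.7 CPM with DSS in controls (-0.95 ± 0.13, adjusted p = 0.000135). In transgenic wall it was at 97.1, 98.8, 94.6 and 93.7 CPM untreated and at 65.7, 47, 50.1 and 59.4 CPM with DSS (-0.79 ± 0.13, adjusted p = 0.000307). Pcna was thus lowered to about the same level in both genotypes, with no overlap, and replicate 1 of the transgenic DSS group was only 1.26 times the mean of the other 3, the smallest such ratio among the 42 genes. Rrm2, the small subunit of ribonucleotide reductase (chr12:24708254-24714146), was at 14.3, 24.1, 15.1 and 23.5 CPM untreated and at 7.32, 4.68, 2.52 and 9.05 CPM with DSS in controls (-1.69 ± 0.53, adjusted p = 0.0198). In transgenic wall it was at 11.9, 13.2, 9.96 and 17.3 CPM untreated and at 21, 5.94, 3.74 and 2.15 CPM with DSS, where replicate 1 lay above every untreated library (-0.67 ± 0.52, adjusted p = 0.315). Rrm1, the large subunit (chr7:102441695-102469771), was at 56.8, 80.8, 76.4 and 70.3 CPM untreated and at 37.3, 26.2, 22.3 and 35 CPM with DSS in controls (-1.23 ± 0.23, adjusted p = 0.00102). Tyms, thymidylate synthase, had the smallest fall of the called genes in controls, 1.56-fold (-0.64 ± 0.17), and was not called in transgenic wall (adjusted p = 0.196).

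All 7 mitotic kinase and checkpoint genes were called lower in controls, with a median of -2.13. Aurkb, the kinase of the chromosomal passenger complex (chr11:69045643-69051662), was at 23, 39, 32.6 and 22.3 CPM untreated and at 9.19, 3.2, 1.71 and 6.71 CPM with DSS in controls, a fall of 5.56-fold (-2.48 ± 0.59, adjusted p = 0.00421). In transgenic wall it was at 27.8, 29.2, 19 and 18.6 CPM untreated and at 15.3, 3.28, 3.04 and 1.39 CPM with DSS (-2.02 ± 0.58, adjusted p = 0.0116). No DSS library of Aurkb reached the untreated range in either genotype. Ttk, the checkpoint kinase MPS1 (chr9:83834689-83872390), was at 7.81, 10.7, 11 and 10.2 CPM untreated and at 5.12, 0.73, 0.86 and 3.01 CPM with DSS in controls (-2.02 ± 0.66, adjusted p = 0.0236). Birc5, the passenger protein survivin, fell in controls (-2.31), as did Plk1, a kinase of mitotic entry and spindle assembly (-2.13), and the checkpoint kinase Bub1 (-2.41). The falls of Bub1b, its relative BUBR1 (-1.7), and of the centrosomal kinase Aurka (-1.75) were smaller. In transgenic wall 6 of the 7 were called lower, and Bub1 was not (-1.42 ± 0.64, adjusted p = 0.0853).

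Of the 7 spindle, kinetochore and cytokinesis genes, 6 were called lower in controls and 5 in transgenic wall. Nusap1, which bundles spindle microtubules (chr2:119618298-119650160), was at 29.3, 41.8, 40.8 and 27.4 CPM untreated and at 14.3, 4.29, 3.67 and 9.39 CPM with DSS in controls (-2.13 ± 0.53, adjusted p = 0.00548). In transgenic wall it was at 35.9, 38.8, 26.6 and 22.7 CPM untreated and at 17.2, 4.84, 4.21 and 1.79 CPM with DSS (-2.13 ± 0.53, adjusted p = 0.00514), so that the fitted change was nearly the same in both genotypes. Cenpe, a kinetochore motor (chr3:135212563-135273540), was at 24, 35.9, 26.3 and 22.6 CPM untreated and at 21, 5.07, 2.92 and 9.57 CPM with DSS in controls. Its DSS replicate 1 lay just under the lowest untreated library, and the change did not pass in controls (-1.49 ± 0.62, adjusted p = 0.0681). Among the others that fell in controls were the spindle motor Kif11 (-2.12), the cytokinesis motors Kif20a (-2.04) and Kif23 (-1.37), Tpx2, which activates Aurora A on the spindle (-2.0), and the kinetochore protein Cenpf (-1.78).

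Both partners of the anaphase-promoting complex fell in both genotypes. Cdc20, the activator that binds the complex in mitosis (chr4:118432901-118437343), was at 36.4, 56.7, 47.8 and 27.3 CPM untreated and at 17.5, 4.91, 2.36 and 11.6 CPM with DSS in controls (-2.20 ± 0.68, adjusted p = 0.0171). Ube2c, the ubiquitin-conjugating enzyme that works with the complex (chr2:164769929-164772902), was at 46.1, 82, 80.1 and 33.7 CPM untreated and at 21.2, 5.11, 4.93 and 12.6 CPM with DSS in controls (-2.46 ± 0.61, adjusted p = 0.00562). In both genes control DSS replicates 1 and 4 were above replicates 2 and 3, and all 4 were below the untreated libraries. Mki67, the Ki-67 antigen that coats mitotic chromosomes and marks cycling cells (chr7:135689788-135716379), was at 231, 358, 251 and 169 CPM untreated and at 139, 32.9, 13.5 and 55.1 CPM with DSS in controls (-2.06 ± 0.71, adjusted p = 0.0305). In transgenic wall it was at 184, 198, 159 and 164 CPM untreated and at 182, 34.3, 27.1 and 10.1 CPM with DSS (-1.48 ± 0.70, adjusted p = 0.101), with replicate 1 inside the untreated range. Top2a, which untangles replicated DNA (chr11:98992947-99024189), was at 109.6, 185, 149.7 and 116 CPM untreated and at 51.7, 17.9, 9.91 and 38.1 CPM with DSS in controls (-2.25 ± 0.62, adjusted p = 0.00995). In transgenic wall it was at 99.7, 106, 79.8 and 94.9 CPM untreated and at 98.4, 20.7, 18.1 and 6.2 CPM with DSS (-1.40 ± 0.61, adjusted p = 0.0739). Neither Mki67 nor Top2a passed in transgenic wall with all 4 libraries.

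**Figure D2:**
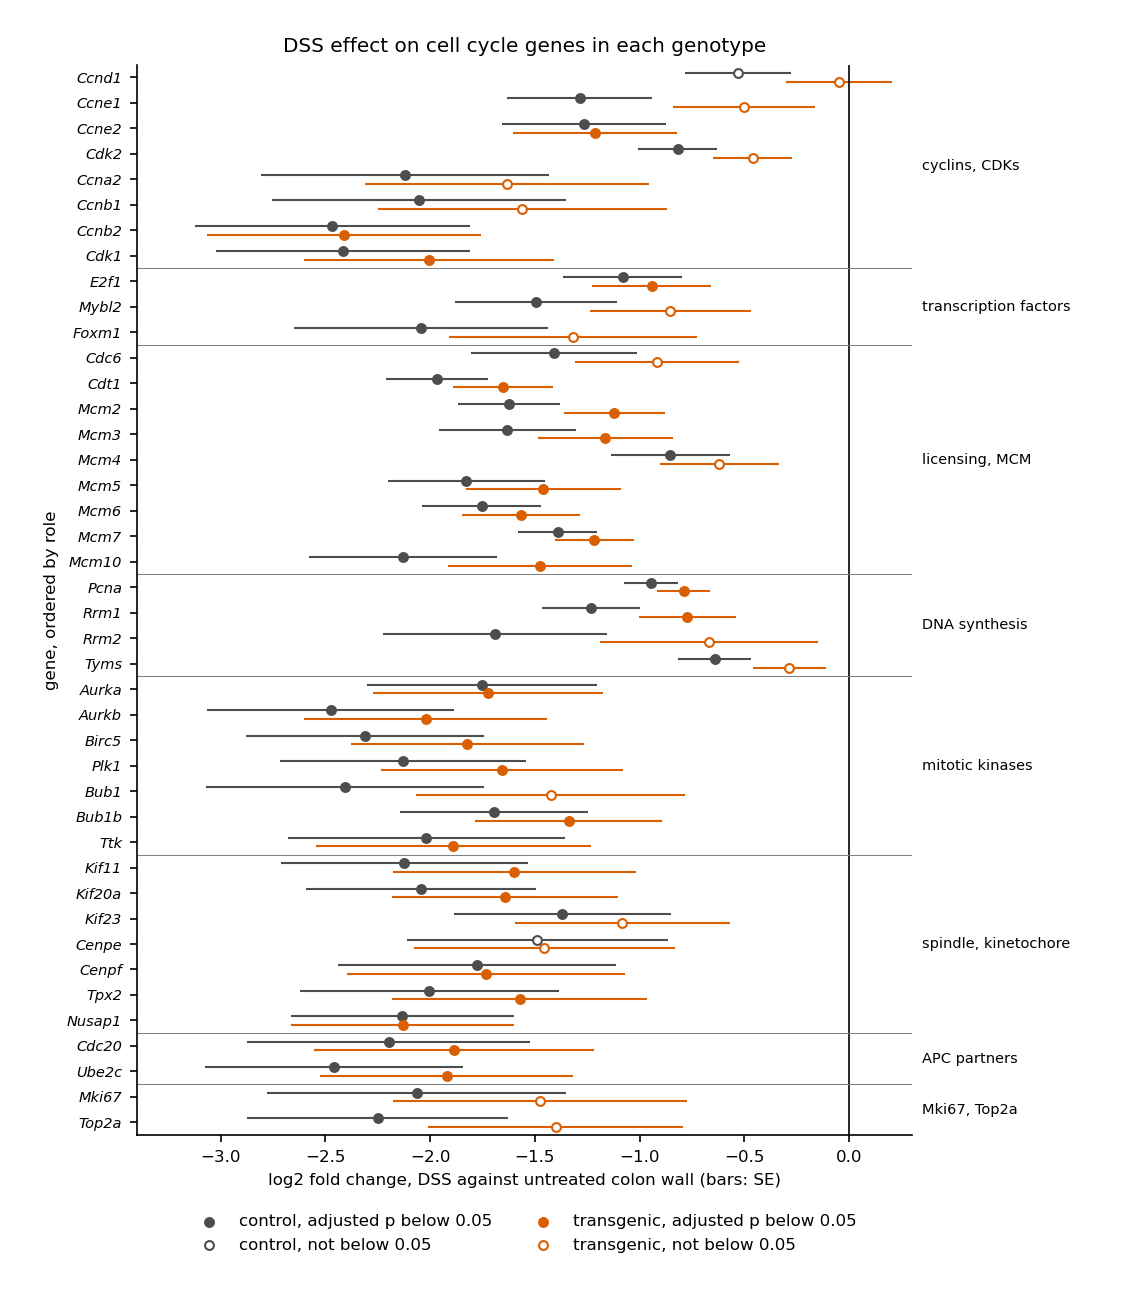
Log2 fold change of each gene with DSS against untreated wall (horizontal axis; bars are SE), in control (grey) and transgenic (orange) wall, each from 4 libraries against 4; filled points had an adjusted p below 0.05. All 42 points lie below 0 in both genotypes, with control values of -2.48 to -0.53 and transgenic values of -2.41 to -0.05.

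The spread between DSS libraries was wider for mitotic than for replication genes. In control DSS wall the highest library exceeded the lowest by a median of 1.58 times over the licensing genes and 1.71 times over the DNA synthesis genes, but by 5.61 times over the mitotic kinases, 5.53 times over the spindle genes and 7.76 times for Mki67 and Top2a. Over all 42 genes the median ratio was 4.09 in control and 8.17 in transgenic DSS wall, against 1.72 and 1.37 in untreated wall. The mean log2 CPM over the 42 genes was 4.68 to 5.33 in control untreated and 4.58 to 4.83 in transgenic untreated wall. With DSS it was 3.81, 2.70, 2.12 and 3.48 in controls and 4.50, 2.82, 2.59 and 1.85 in transgenic wall. The SE of the DSS effect in controls ran from 0.13 to 0.71. It rests on the spread of all 16 wall libraries in the fit, those of transgenic mice among them.

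**Figure D3:**
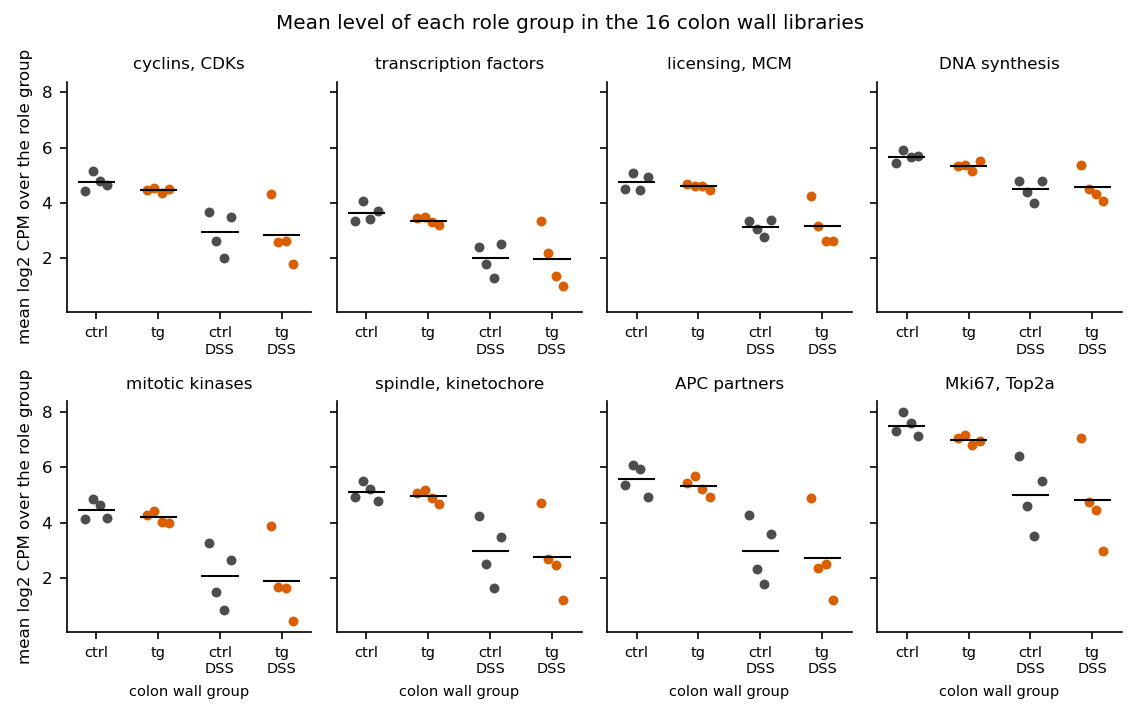
Mean log2 CPM over the genes of each role group (vertical axis) in the 16 colon wall libraries, with 1 point per library and a line at the group mean; grey is control and orange transgenic. With DSS the licensing libraries of controls lie between 2.76 and 3.37 and the mitotic kinase libraries between 0.85 and 3.27, and transgenic replicate 1 is the highest point of its group in every panel.

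The count in transgenic wall rested on single libraries. Transgenic DSS replicate 1 was at 1.26 to 7.78 times the mean of the other 3 libraries over the 42 genes, with a median of 4.98. Without it 40 genes were called lower in transgenic wall and the median log2 fold change was -2.42, against -0.017 over all genes. Without transgenic DSS replicate 2 or 3 the count was 14 or 15, and it was 14 without replicate 4 of all 4 wall groups, libraries whose deposited names begin with another number. The shares of all genes called lower in these fits with libraries left out are not given here. In replicate 1 the pan-epithelial score was 8.72, with 9.0 to 9.70 in the others of its group, the absorptive colonocyte score 7.65 with 8.6 to 8.66, the fibroblast score 8.30 with 7.44 to 8.09, and the crypt stem cell score 3.68 with 2.75 to 3.25. The smooth muscle score was 10.76 with 11.22 to 12.14, the myeloid score 4.54 with 3.5 to 4.32, and the goblet cell score 9.05 with 9.22 to 9.73. The library with the lowest cell cycle score had the highest smooth muscle score in both DSS groups, 12.54 in control replicate 3 and 12.14 in transgenic replicate 4. In controls the library with the highest cell cycle score, replicate 1, was at 11.48, within the range of its group. The part of these cell types in the cell cycle values was not tested.

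Whether DSS acted differently in the genotypes was tested directly, and this difference passed the threshold for 0 of the 42 genes in edgeR's test, and for 0.0% of all 16074 genes (1279 of them had an unadjusted p under 0.05, and DESeq2 called 24 and 12 genes in the 2 directions). The smallest adjusted p of the 42 was 0.784, 0 had an unadjusted p under 0.05, and DESeq2 also called 0 of them. All 42 fitted differences lay on the side of a deeper fall in controls (median 0.42, with SE from 0.18 to 0.97), but without transgenic DSS replicate 1 the median was -0.44, and 34 of 42 lay on the other side.

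Markers of other cell types moved with DSS as well. In controls all 8 endothelial, 7 fibroblast, 6 enteric neuron and glia and 8 myeloid markers were called higher, with medians of 1.45, 1.43, 1.29 and 2.19 on the log2 scale. Of 10 pan-epithelial markers 3 were called lower and 1 higher (median -0.39), and of 7 absorptive colonocyte markers 0 were called (median -0.20, smallest adjusted p = 0.11 in edgeR's test). In the other lists 1 of 5 goblet cell markers, 0 of 6 smooth muscle markers and 2 of 8 lymphocyte markers were called higher (medians 0.62, 0.49 and 0.27). The counts of all genes called in each direction in controls are given below with the alternatives of processing. In transgenic wall all 8 endothelial, 7 fibroblast and 6 neuron and glia markers and 7 of 8 myeloid markers were called higher, as were 1 goblet cell, 1 smooth muscle and 1 lymphocyte marker. Lower there were 5 of 8 crypt stem cell, 2 of 7 absorptive colonocyte and 1 of 10 pan-epithelial markers. In controls crypt stem cell markers fell with the cell cycle genes: 6 of 8 were called lower, with a median of -1.38, and Lgr5, the stem cell receptor of R-spondins, had a log2 fold change of -4.04. With the pan-epithelial score as a term in the fit, 41 cell cycle genes were called lower in controls and 39 in transgenic wall. Their medians were -2.24 and -2.02, against 0.067 and 0.007 over all genes. The cell cycle score minus the pan-epithelial score was -4.83 to -4.17 in control untreated wall and -6.82 to -5.42 with DSS, without overlap between the groups. The transgenic values were -4.89 to -4.50 untreated and -7.48 to -4.22 with DSS, where replicate 1 lay above every untreated library. The part of the other cell types was not tested.

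Promoters of the genes that fell together were read from RefSeq (build GRCm38.p6, 250 bases before to 50 after the annotated start), where 34 of the 42 genes had an entry. They were searched on both strands for the letters of an E2F site (TTTGGCGC, TTTCCCGC, TTTCGCGC or TTTGCCGC), of a CHR element, the site of the MuvB complex that recruits B-MYB and FOXM1 (TTTGAA or TTCGAA), and of the CCAAT box bound by NF-Y (CCAAT). None of these motifs contains another. E2F letters were in 8 of 34 promoters (23.5%), against 2.6% of all 27025 genes with a promoter. CHR letters were in 16 of 34 (47.1%, against 21.7%), CCAAT in 26 of 34 (76.5%, against 41.1%), and 17 held CCAAT at least 2 times (50%, against 13.3%). By role, E2F letters were in 6 of the 8 licensing promoters and in 2 of 5 cyclin and kinase promoters, and in 0 of the rest. CHR letters were in 5 of 6 mitotic kinase promoters, both of the APC partners, both of Mki67 and Top2a and 3 of 5 spindle promoters, but in 2 of 8 licensing promoters. A match says only that these letters stand in the window.

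Shown first are the promoters of the called gene with the smallest p in each of 4 role groups, among genes with an entry, and then 2 chosen after the search, Mcm6 for the most E2F matches and Top2a for the most CHR and CCAAT matches. Capitals mark the matches. Cdt1 (chr8:122567765-122568064, plus strand) holds 1 E2F match, 33 bases after the start. Cdk2 (chr10:128705002-128705301, minus strand) holds an E2F match on the other strand and a CCAAT box, starting 140 and 45 bases before the start. Mybl2 (chr2:163054385-163054684, plus strand) and Birc5 (chr11:117848987-117849286, plus strand) hold none of these letters. Mcm6 (chr1:128359656-128359955, minus strand) holds 3 E2F matches, of which 2 overlap, and 2 CCAAT boxes. Top2a (chr11:99024140-99024439, minus strand) holds 4 CHR and 6 CCAAT matches. Each is written 5′ to 3′ on the strand of the gene.
Cdt1: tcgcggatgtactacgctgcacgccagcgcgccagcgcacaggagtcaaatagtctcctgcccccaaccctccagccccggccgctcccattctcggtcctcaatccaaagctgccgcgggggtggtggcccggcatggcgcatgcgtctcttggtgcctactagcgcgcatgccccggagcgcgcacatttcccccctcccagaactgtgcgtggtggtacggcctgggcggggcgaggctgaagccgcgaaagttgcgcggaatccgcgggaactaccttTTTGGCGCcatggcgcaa
Cdk2: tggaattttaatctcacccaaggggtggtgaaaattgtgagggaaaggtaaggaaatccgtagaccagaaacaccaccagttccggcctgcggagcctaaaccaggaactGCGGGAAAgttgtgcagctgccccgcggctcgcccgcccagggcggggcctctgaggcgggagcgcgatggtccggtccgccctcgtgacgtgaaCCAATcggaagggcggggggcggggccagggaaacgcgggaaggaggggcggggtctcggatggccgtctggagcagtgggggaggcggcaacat
Mybl2: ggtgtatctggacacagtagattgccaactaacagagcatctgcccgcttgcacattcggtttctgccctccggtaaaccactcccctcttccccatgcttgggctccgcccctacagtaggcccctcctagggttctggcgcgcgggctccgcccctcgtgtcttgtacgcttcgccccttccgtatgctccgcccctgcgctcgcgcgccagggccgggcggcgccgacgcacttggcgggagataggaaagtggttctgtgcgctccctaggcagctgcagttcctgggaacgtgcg
Birc5: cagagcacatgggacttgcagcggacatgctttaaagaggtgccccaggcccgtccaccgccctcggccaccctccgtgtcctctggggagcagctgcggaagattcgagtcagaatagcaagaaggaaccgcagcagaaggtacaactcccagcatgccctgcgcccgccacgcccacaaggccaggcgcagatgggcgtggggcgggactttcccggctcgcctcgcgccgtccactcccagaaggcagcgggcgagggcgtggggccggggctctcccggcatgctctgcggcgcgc
Mcm6: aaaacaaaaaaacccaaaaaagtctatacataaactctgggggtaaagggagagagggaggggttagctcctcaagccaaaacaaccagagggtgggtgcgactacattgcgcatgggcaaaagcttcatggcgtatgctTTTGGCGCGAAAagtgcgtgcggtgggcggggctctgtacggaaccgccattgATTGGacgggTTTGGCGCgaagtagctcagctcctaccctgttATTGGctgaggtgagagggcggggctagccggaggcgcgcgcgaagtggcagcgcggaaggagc
Top2a: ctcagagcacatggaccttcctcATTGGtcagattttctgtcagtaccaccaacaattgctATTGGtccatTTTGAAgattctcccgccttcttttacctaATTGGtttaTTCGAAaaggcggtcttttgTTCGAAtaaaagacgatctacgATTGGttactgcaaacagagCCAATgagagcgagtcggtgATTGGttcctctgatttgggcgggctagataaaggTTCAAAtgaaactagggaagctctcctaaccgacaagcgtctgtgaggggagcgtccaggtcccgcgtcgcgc

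The role groups whose promoters differ in these letters had these values with DSS: the licensing genes, with E2F letters in most promoters, had a median log2 fold change of -1.63 in controls, and the mitotic kinases, with CHR letters in most, had a median of -2.13. Whether the letters bear on the fall was not tested.

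Other genes of the pathway, in 10 lists with 114 tested genes outside the 42, were described in the same way. In controls 67 were called lower and 2 higher with DSS (median -0.63), and in transgenic wall 63 lower and 4 higher (median -0.64). Of all genes tested 16.1% and 18.1% were called lower. All 13 centromere and kinetochore genes fell in controls (median -1.97), among them Spc24, a subunit of the NDC80 complex (-2.26). Of 19 replicative polymerase, clamp loader and RPA genes 16 fell (median -1.10), among them Pold2, a subunit of polymerase delta (-1.21). Of 16 cohesin, condensin and separase genes 10 fell, of 14 origin recognition, GINS and CDC7 genes 7, of 9 other nucleotide supply enzymes 7, with 1 higher, and of 7 other E2F factors 4, among them E2f3 (-1.18). Wee1, the kinase that holds back CDK1, fell as well (-1.44). Of the core subunits of the anaphase-promoting complex 2 of 12 were called lower (median -0.18), about the share over all genes (16.1%). The changes of its partners Cdc20 and Ube2c were -2.20 and -2.46.

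The G1 machinery upstream of E2F did not move as a block. Cdk4, the kinase of D-type cyclins, was at 89, 118, 97.2 and 75.9 CPM untreated and at 44.2, 38.2, 48.9 and 50.3 CPM with DSS in controls, without overlap (-1.07 ± 0.16, adjusted p = 0.000296). Cdk6, its relative, fell from 5.22, 4.97, 4.57 and 6.19 CPM to 4.01, 3.39, 3.57 and 3.26 CPM (-0.56 ± 0.19, adjusted p = 0.0269). Ccnd2, another D-type cyclin, was at 245, 301, 231 and 345 CPM untreated and at 263, 175, 156 and 246 CPM with DSS, with overlap (-0.42 ± 0.19, adjusted p = 0.0918). Ccnd3 moved the other way from the cell cycle genes in transgenic wall, where it was at 53.5, 52.1, 52.7 and 69.7 CPM untreated and at 89.5, 77.8, 99.2 and 119 CPM with DSS (0.76 ± 0.15, adjusted p = 0.00122). In controls the fitted change of Ccnd3 was positive too, but it was not called and the groups overlapped (0.32 ± 0.15, adjusted p = 0.0958). Its difference between the genotypes was not called either (0.43 ± 0.21, adjusted p = 0.657). The retinoblastoma gene Rb1 had a fitted change of 0.22 ± 0.24 in controls and passed in neither genotype (adjusted p = 0.489 and 0.15). Among 6 CDK inhibitor genes tested, the smallest adjusted p in controls was that of Cdkn2b (0.45 on the log2 scale, adjusted p = 0.0913). Cdkn1a, the inhibitor p21 and a p53 target, was at 536, 645, 526 and 262 CPM in transgenic untreated wall and at 138, 168, 239 and 211 CPM with DSS, a called fall (-1.38 ± 0.32, adjusted p = 0.0032). In controls it was at 412, 202, 342 and 221 and 131, 144, 186 and 314 CPM, with overlap (-0.60 ± 0.31, adjusted p = 0.136). The difference of the DSS effect on Cdkn1a between the genotypes was not called (-0.78 ± 0.44, adjusted p = 0.751). Cdkn1b, the inhibitor p27, was at 29.5, 34.1, 26.2 and 41.4 CPM and 37.4, 31.9, 40.7 and 48.1 CPM in controls (0.27 ± 0.17, adjusted p = 0.22).

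The transgene by itself moved no cell cycle gene past the threshold in wall. The SE in untreated wall (median 0.51) rests on the spread of all 16 wall libraries, the more variable DSS groups among them. In untreated wall 0 of 42 were called by edgeR or by DESeq2, 0 had an unadjusted p under 0.05, and 0.224% of all genes were called. Yet 40 of 42 fitted changes lay below 0, with a median of -0.26 against -0.02 over all genes, and in 3 genes every transgenic library lay below every control library (2.85% of all genes). The smallest p belonged to Ccnd1, at 59.5, 45.6, 55.5 and 83.4 CPM in transgenic against 71.3, 100.5, 73.7 and 90.9 CPM in control libraries (-0.46 ± 0.25, adjusted p = 0.566). Next came Rrm1, at 56, 54.7, 49.6 and 52.8 against 56.8, 80.8, 76.4 and 70.3 CPM, where the groups did not overlap (-0.42 ± 0.23, adjusted p = 0.574), and Cdk2, at 20.9, 18.9, 20.7 and 25.9 against 20.2, 37.9, 21.2 and 28.9 CPM (-0.32 ± 0.19, adjusted p = 0.598). Control replicate 2 was the highest of its group for 35 of 42 genes, and without it 34 of 42 changes lay below 0 and the median was -0.12. In DSS-treated wall 0 of 42 were called by either tool, 0 had an unadjusted p under 0.05, and 0.0933% of all genes were called. There 36 of 42 fitted changes lay above 0 (median 0.13). Without transgenic DSS replicate 1 there were 41 below 0 (median -0.77), with 18 at an unadjusted p under 0.05 and 0 called by edgeR. The share of all genes at that unadjusted p in this fit is not given here.

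In epithelial cells the transgene moved no cell cycle gene past the threshold with all libraries in the fit. With all 8 libraries 0 of 42 genes were called by edgeR or by DESeq2, and edgeR called 0.0% of 12941 genes. At an unadjusted p under 0.05 in edgeR's test were 5 of the 42, all 5 lower in transgenic cells. The share of all genes at this unadjusted threshold is not given here, so the 5 are a count without a background. The median was -0.10, and 29 of 42 changes lay below 0. Ccna2 was at 64, 61.8, 64.5 and 82.2 CPM in transgenic and at 109, 91.4, 89.1 and 101 CPM in control cells, without overlap (-0.52 ± 0.14, adjusted p = 0.289). Nusap1 was at 32.2, 36.9, 38.8 and 37.1 against 61.9, 45.6, 40.1 and 59.4 CPM, again without overlap (-0.51 ± 0.17, adjusted p = 0.35). These were the 2 genes of 42 whose transgenic libraries all lay below the controls (4.49% of all genes), and 0 lay above (2.77%). Pcna was at 91.3, 91.6, 97.2 and 101 against 139, 141, 101 and 139 CPM, with only control replicate 3 near the transgenic libraries (-0.45 ± 0.14, adjusted p = 0.322). Ttk was at 6.81, 6.53, 10.1 and 14.1 against 20.8, 19, 11.1 and 19.2 CPM (-0.91 ± 0.31, adjusted p = 0.369) and Mki67 at 192, 238, 241 and 289 against 385, 349.9, 200.4 and 390.2 CPM (-0.47 ± 0.23, adjusted p = 0.528). Over the 9 licensing genes the median was 0.04, and Cdt1 was at 27.4, 32.6, 33.3 and 47.1 against 39.1, 34.6, 21.3 and 41.5 CPM. Cdc20 was at 62.9, 61.4, 66.6 and 83.7 against 62.7, 63.1, 63.2 and 70.5 CPM and Ube2c at 59.5, 57, 78.5 and 81.2 against 67.4, 65.8, 63.2 and 73.6 CPM, with overlap in both.

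Leaving out control replicate 3 and transgenic replicate 1 of the epithelial libraries changed these calls. With the remaining 3 and 3 libraries 6 genes were called lower in transgenic cells by edgeR, among 381 genes called higher and 454 called lower of 12994 tested. Without control replicate 3 alone, or without transgenic replicate 1 alone, 0 of the 42 were called (11 and 4 at an unadjusted p under 0.05 in edgeR's test). These unadjusted counts also stand without the share of all genes. An earlier reading of these data set the libraries left out apart by marker lists, and they also stand apart in the levels of these same genes, so the 6 calls are a description of the remaining libraries and no independent test. They were Pcna (-0.54 ± 0.09, adjusted p = 0.0172), Mki67 (-0.56 ± 0.11, 0.0234), Top2a (-0.52 ± 0.12, 0.0341), Rrm1 (-0.53 ± 0.12, 0.0365), Ccna2 (-0.54 ± 0.14, 0.0471) and Nusap1 (-0.57 ± 0.14, 0.0475). The libraries left out had the 2 lowest cell cycle scores of the 8, 5.10 and 5.07 against 5.39 to 5.79, and the highest absorptive colonocyte scores, 9.84 and 9.97 against 6.60 to 8.12. Their crypt stem cell scores were 5.0 and 4.95 against 6.24 to 6.71, and their endothelial scores -1.42 and -1.29 against 1.98 to 3.49. The part of this makeup in the genotype values was not tested.

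**Figure D4:**
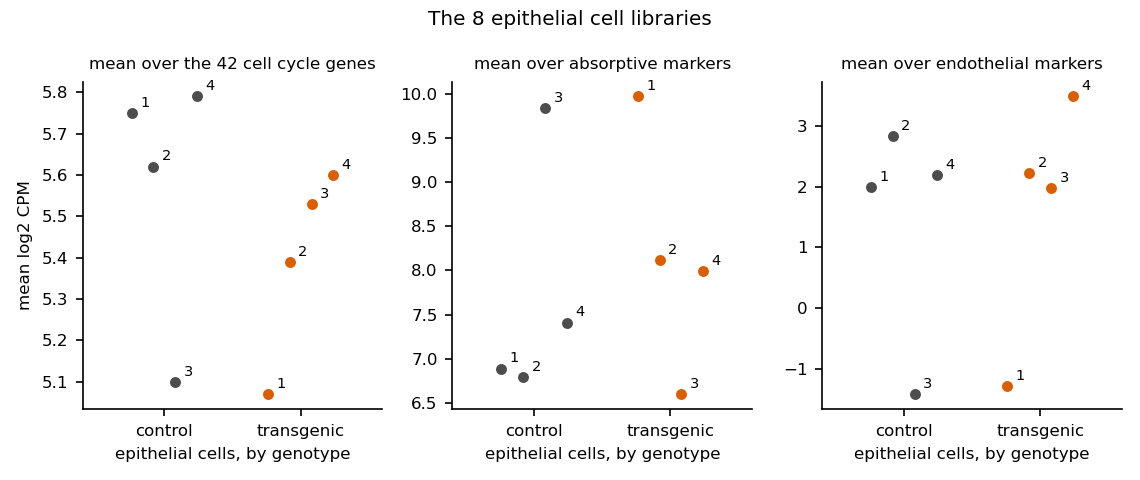
Mean log2 CPM in each epithelial library (1 numbered point per replicate; grey control, orange transgenic) over the 42 cell cycle genes, over 7 absorptive colonocyte markers and over 8 endothelial markers. Control replicate 3 and transgenic replicate 1 are lowest in the first and last panel and highest in the middle one, where they reach 9.84 and 9.97.

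Set against untreated wall, most of the 42 genes had a larger share of the counts in epithelial cells. In controls 28 of 42 genes were called higher in epithelial cells (18.9% of all 15073 genes tested were called higher) with a median of 0.67, and in transgenic mice 26 (20.0%) with a median of 0.71. In both genotypes 22 were called. The groups did not overlap for 7 of 42 genes in controls, which is about the share over all genes (16.6%), and for 26 of 42 in transgenic mice (17.4%). The cell cycle score minus the pan-epithelial score was -5.14 to -3.65 in control and -5.18 to -4.05 in transgenic epithelial cells. These ranges overlapped those of untreated wall, -4.83 to -4.17 and -4.89 to -4.50. All 9 licensing genes were higher in both genotypes, with medians of 1.0 and 1.12. Scaled together with wall, Mybl2 was at 23.2, 21.2, 18.5 and 26.2 CPM in control epithelial cells against 7.35, 12.9, 7.24 and 9.27 CPM in wall (1.28 ± 0.21, adjusted p = 0.00018). In transgenic mice it was at 17.8, 26.7, 22.3 and 17.8 against 6.88, 7.49, 6.34 and 6.03 CPM (1.66 ± 0.21, adjusted p = 1.73e-05). No epithelial library of Mybl2 came down to its wall range. Cdt1 was at 40.7, 36.1, 20.4 and 42.8 CPM in control epithelial cells against 19.8, 28.3, 16.3 and 22.1 CPM in wall, with replicate 3 inside the wall range (0.69 ± 0.23, adjusted p = 0.0262). Mki67 was at 401, 365, 192 and 403 against 228, 355, 249 and 167 CPM in controls and did not pass (0.45 ± 0.24, adjusted p = 0.155). Ube2c was at 70.2, 68.6, 60.7 and 76.1 against 45.6, 81.3, 79.3 and 33.4 CPM, with overlap (0.20 ± 0.25, adjusted p = 0.559). Pcna was higher in control epithelial cells (0.34 ± 0.13, adjusted p = 0.0439), while in transgenic cells its fitted change was 0.00 ± 0.13 (adjusted p = 0.991).

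Without control epithelial replicate 3 and transgenic epithelial replicate 1, 35 genes were called higher in controls and 32 in transgenic mice. The medians were then 0.74 and 0.78, against -0.06 and -0.109 over all genes. The count in controls also moved with single libraries: it was 11 without control untreated wall replicate 1, 14 without control epithelial replicate 1 and 18 without control epithelial replicate 4. The shares of all genes called higher in these fits with libraries left out are not given here. The 6 smooth muscle markers were lower in control epithelial cells (median log2 fold change -8.47), and the 10 pan-epithelial markers had a median of -0.05 with 3 called higher and 1 lower, while 5 of 8 crypt stem cell markers were called higher (median 0.98). Tested directly, the transgene effect differed between the tissues for 0 of 42 genes in edgeR's test and for 0 in DESeq2, with 1 at an unadjusted p under 0.05 in edgeR's test, and for 0.0% of all genes.

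**Figure D5:**
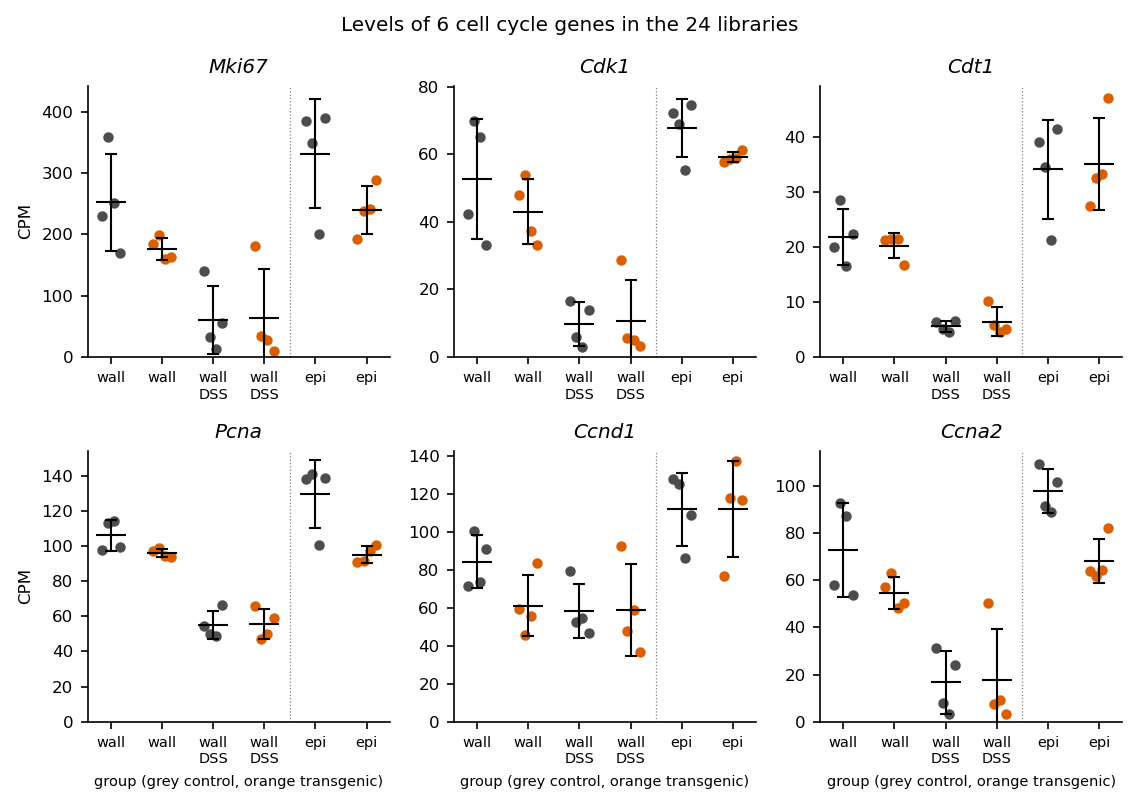
CPM (vertical axis, from 0) of 6 of the genes in every library, with the mean and SD of each group of 4 in black; grey points are control and orange points transgenic, and wall and epithelial libraries, left and right of the dotted line, were scaled apart. Mki67, Cdk1, Cdt1, Pcna and Ccna2 are low in both DSS groups, apart from transgenic replicate 1 in Mki67, Ccna2 and, less so, Cdk1, while the Ccnd1 groups overlap.

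Per transcript length (TPM, as deposited and summed per gene), levels differed widely within the set. Pcna was the most abundant gene in control untreated wall, at 154.2 ± 19.2 TPM (SD, n = 4), in control DSS wall at 88.3 ± 15.8 TPM, and in control epithelial cells at 195 ± 50.5 TPM. Ube2c followed in control untreated wall at 120 ± 42.4 TPM, which did not differ from Pcna beyond the spread of the libraries, and Birc5 at 71.0 ± 28.0 TPM. Cdc6 and Ccne2 were the least abundant there, at 2.27 ± 1.24 and 2.38 ± 1.43 TPM. With DSS the order below Pcna changed in controls: Ccnd1, at 29.5 ± 8.72 TPM, stood second, and Ube2c, at 25.1 ± 18.8 TPM, within the spread of Ccnd1.

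Across the 24 libraries, scaled together, each gene was compared with the mean of the other 41 as a description, since the libraries share their groups. The median Pearson correlation of log2 CPM was 0.972, and the lowest were 0.767 for Ccne2, 0.795 for Ccnd1 and 0.822 for Cdk2. Then came E2f1 (0.865), Tyms (0.874), Pcna (0.885) and Ccne1 (0.899). Of 15938 genes compared, those outside the lists whose pattern was most like the mean of the 42 included Spag5 (0.996), Kif15, Kif22, Iqgap3, Cdca2, Prc1, Dlgap5, Kif18b and Kif2c (0.988). Spag5, a spindle protein, had mean levels of 27.7, 18.9, 4.54 and 5.64 CPM in control untreated, transgenic untreated, control DSS and transgenic DSS wall, and of 47.1 and 36.8 CPM in control and transgenic epithelial cells.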

How the data were processed

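RNA-seq libraries of mouse colon were analysed from the deposited gene expression tables, 1 per library, with 30383 transcripts each. Per the file headers the deposited tables hold expected counts and TPM, and 39.2% of the expected counts were not whole. RSEM 1.2.11, FastQC and the build mm10 are named in the submitters' processing notes, and no source used here names the aligner or the annotation. The estimated counts were summed per gene symbol, rounded and tested with edgeR 4.0.16 (quasi-likelihood, TMM scaling, filterByExpr, Benjamini-Hochberg adjustment over all genes tested, threshold 0.05) in R 4.3.3 with limma 3.58.1. Separate fits covered the 16 wall libraries, the 8 epithelial libraries, and both untreated tissues together. CPM were scaled within wall and within epithelial cells, except in the comparison of the tissues. The SE of a log2 fold change was taken from the F statistic. Scores are means of log2 CPM with a prior count of 0.5. Deposited TPM, summed per symbol, served for levels between genes. Summing over transcripts leaves reads shared by related genes as RSEM divided them. In all 36 pairs of replicates the libraries differed by more than counting noise (chi-square per gene at least 10.6).

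The 42 genes, the 10 pathway lists and the 10 marker lists were chosen with earlier results of these data known. Values of every library are given for the members of each role group with the smallest and the largest p in the DSS effect in controls, the 3 with the smallest p for the transgene in epithelial cells and in untreated wall, and Mki67, Pcna, Ccnd1 and Cdk1. The rest are given by fold change, range and counts. Samples were treated as unpaired, and correlations of the deviations of same-numbered libraries ran from -0.56 to 0.29. Such correlations cannot exclude a shared batch, and replicate 4 of every wall group has another leading number in its deposited name. DESeq2 1.42.0, other scaling, no filter on low counts, a replicate block, a pan-epithelial score term and the omission of libraries were tried as alternatives. The edgeR steps were tested on simulated data, and the DESeq2 step was not. Figures were drawn with matplotlib 3.10.9. Of the genes most like the set, not all are reported here.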

Additional observations from a re-analysis of the deposited data

Results flagged for a closer look

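Within groups of 4 libraries, a library was singled out where its gap to the nearest other as a share of the range of the group exceeded Dixon's 95% critical value. Among the 19 genes described with their values this held for 15 of 114 gene and group combinations, and among all 42 genes for 31 of 252, where chance gives about 1 in 20; genes of the same library are not independent. Transgenic DSS-treated wall replicate 1 was the high library in 9 of the 15: Cdk2 at 19.4 CPM, Ccna2 at 50.1 CPM, Cdk1 at 28.7 CPM, Aurkb at 15.3 CPM, Cenpe at 27.5 CPM, Cdc20 at 29.3 CPM, Ube2c at 31.0 CPM, Mki67 at 182 CPM and Top2a at 98.4 CPM. Transgenic epithelial replicate 4 was high for Ccna2 (82.2 CPM) and Aurkb (45.8 CPM), and control epithelial replicate 4 for Cdc20 (70.5 CPM). Low libraries were control epithelial replicate 3 for Mcm4 (28.0 CPM) and Pcna (101 CPM), and transgenic untreated wall replicate 4 for Cdt1 (16.8 CPM).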

How the results depend on the processing

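The DSS count in control wall stayed at 28 to 42 genes when single libraries were left out and at 40 with DESeq2. It was 41 with a replicate block, a term for the replicate number, though no label says that these numbers pair the samples. In transgenic wall 26 genes became 14 to 40 with single libraries left out, 35 with the replicate block, 29 with DESeq2 and 14 without the 4 wall libraries whose deposited names begin with another number. The transgene effect in epithelial cells went from 0 to 6 genes lower without control replicate 3 and transgenic replicate 1. The 28 genes higher in epithelial cells than in wall in controls became 11 to 31 with single libraries left out, 21 with RLE size factors, which moved the median of all genes from 0.04 to -0.06, and 26 with the replicate block. For the 57 values of single genes, 803 alternative values gave no reversal, 98 lost and 9 gained the threshold. These values were taken because they were called, lay in the DSS effect in controls or had the smallest p for the transgene, so few reversals could arise. The genotype difference in the DSS effect and the transgene effect in DSS-treated wall were not among them. Without transgenic DSS replicate 1 their medians over the 42 genes went from 0.42 to -0.44 and from 0.13 to -0.77. Counts over all genes moved more: the transgene effect in untreated wall (22 higher, 14 lower) became 124 and 109 with DESeq2, 5 and 2 with the replicate block, 258 and 146 without the libraries of another leading number, and 5 and 5 with only the compared groups. In DSS-treated wall 15 higher became 41 with DESeq2 and 0 with the replicate block, and in epithelial cells 0 became 62 higher and 101 lower with DESeq2. The test of a genotype difference in the DSS effect went from 0 to 24 and 12 with DESeq2. With the pan-epithelial score term the DSS effect in controls went from 3713 higher and 2587 lower to 2129 and 1683. The cause of these shifts was not tested. Precision is limited with 4 libraries per group and DSS libraries that differ severalfold, and epithelial libraries were shallower than those of wall. The parts of spread and depth in this limit were not tested.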

Other observations

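Cdkn1a, the CDK inhibitor p21, was highest in the epithelial library with the lowest cell cycle score of each genotype, with no such order among the other libraries. It was at 97.7, 116, 504 and 125 CPM in control replicates 1 to 4, where the cell cycle score was 5.75, 5.62, 5.10 and 5.79. In transgenic replicates 1 to 4 it was at 600, 234, 92.1 and 256 CPM, with scores of 5.07, 5.39, 5.53 and 5.60. The 2 libraries with the most Cdkn1a were also those with the highest absorptive colonocyte scores.

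Other pathway genes were higher in epithelial cells than in untreated wall for 39 of 114 genes in controls, with 1 lower, and for 40 in transgenic mice, with 8 lower. Of all genes tested 18.9% and 20.0% were called higher.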
